A study of Rattus norvegicus with 6 samples.

Results

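lncRNA5922, lncRNA3295 and lncRNA6116 are long noncoding RNAs that the array's annotation ties to mouse transcripts, and all 3 were brighter in the denervated than in the normal rat hippocampus. They were taken by probe identifier (RB_p_rnol005922, RB_p_rnol003295 and RB_p_rnol006116) out of 6711 lncRNA probes, 3356 of which are rat matches of mouse transcripts. The 6711 were counted by the array's lncRNA identifiers, which also cover other noncoding RNAs such as microRNA precursors. The study's list of 20 lncRNAs picked for PCR holds 8 such matches, and 5 of these read higher after denervation. The 3 described here were taken from those 5 with the values of these same 6 samples known. The other two, lncRNA462 and lncRNA1615, also meet the stated rule of reading higher in the denervated samples and are given for comparison. In each of lncRNA5922, lncRNA3295 and lncRNA6116 the lowest denervated value exceeded the highest normal one, which held for 3.37% of all lncRNA probes. Because they were chosen on this contrast, their group differences are given as a description, with no test.

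Hippocampal RNA was measured in 3 denervated samples, taken on day 7 after transection of the fimbria-fornix (FF), and in 3 normal samples from untreated hippocampus. All were from adult Sprague-Dawley rats, of both sexes, with no transgene. The cut was made with a wire knife under chloral hydrate, and no sham operation is described in the sources used here. The methods name 3 paired rats as the source of the denervated and untreated hippocampi, which reads as 1 rat for each pair. On that reading the normal samples are untreated hippocampi of operated rats. Which samples form a pair is not said, so the standard errors below take no account of pairing. Each sample was hybridized in 1 colour (Cy5) to a lncDETECT rat array, and values are the authors' log2 normalized intensity.

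The FF is the fibre bundle that brings the cholinergic input of the basal forebrain to the hippocampus, and cutting it removes that input from the dentate gyrus, where neural stem cells of the subgranular zone form neurons throughout adult life. LncRNAs are transcripts without a long open reading frame. Some act in the nucleus on chromatin or transcription, and others act in the cytoplasm, for example by binding microRNAs. Many are expressed in few tissues, and most are conserved between species over short stretches only. A mouse match on this array is a rat position annotated with the accession of a mouse transcript. The roles of lncRNA5922, lncRNA3295 and lncRNA6116 are not given in the sources used here, and no gene name was assigned to them.

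lncRNA5922 is matched to the mouse transcript NR_033620, and the array annotation places it on chromosome 15 from 40046405 to 40064435 on the minus strand. lncRNA3295 is matched to NR_030673, on chromosome 14 from 6541296 to 6556449 on the minus strand. lncRNA6116 is matched to NR_045744, on chromosome 1 from 144869802 to 144878322 on the plus strand. The positions are those of the rat, since 92 mouse matches lie on chromosome 20, which the mouse does not have. The genome build is not given in the sources used here, and exons, introns or neighbouring genes were not looked up.

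Between the arrays, medians lay from 10.17 to 10.19 after the authors' scaling. Normal 2 stood apart from its group across all lncRNA probes, with a Pearson correlation of 0.87 with denervated 3 against 0.73 with normal 1 and 0.76 with normal 3. Denervated 3 correlated at 0.84 with denervated 1 and 0.76 with denervated 2. Differences are therefore also given below without denervated 3 and normal 2. Of 21 noncoding RNA markers of cell types and tissues, 10 were found by their RefSeq symbol. Mouse matches carry no symbol here, so the other markers may have probes that were not found. A probe with the symbol Mir9 was not taken in, as the list names the Mir9a precursors. Bc1, the neuronal cytoplasmic RNA of rodents, read 15.97 to 15.99 in all samples, near the top of the scale, while Mir124-3, a neuronal microRNA precursor, read from -0.22 to 7.60. The oligodendrocyte precursors Mir219a1 and Mir338 averaged 9.79 to 10.18 in the denervated and 9.99 to 10.10 in the normal samples, and Mir142, of blood-derived cells, read 9.64 to 10.66 and 9.64 to 10.64. The erythroid Mir144 read 7.25 to 7.93 and 0.79 to 7.73, and the muscle precursors Mir1, Mir133a1 and Mir206 averaged 8.53 to 8.70 and 7.64 to 8.83. Mir122, the main microRNA of liver, read 12.15 to 12.64 and 12.43 to 12.86, so precursor probes do not define the tissue here. None of the 10 passed the adjusted p in limma (adjusted p = 1.0 for each). In the study's quality table, RNA integrity was higher in the denervated than in the normal samples, so integrity and denervation cannot be told apart in the values below.

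lncRNA5922 read 11.51, 10.08 and 11.03 in denervated 1, 2 and 3. It read 9.53, 9.81 and 9.51 in normal 1, 2 and 3. The groups did not overlap, but denervated 2 was only 0.27 above normal 2, while denervated 1 and denervated 3 stood well above every normal sample. It averaged 10.88 ± 0.73 after denervation against 9.62 ± 0.16 in the normal hippocampus (SD, n = 3 each). On the log2 scale this is a difference of 1.26 (standard error 0.43), or 2.39-fold. In linear intensity the denervated samples were at 2925, 1082 and 2097 and the normal samples at 740, 895 and 730, so that the spread lay almost wholly on the denervated side.

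lncRNA3295 read 8.26, 7.92 and 7.72 in denervated 1, 2 and 3, and 7.14, 5.67 and 6.09 in normal 1, 2 and 3. Here the denervated samples lay close together and the normal samples were spread, with normal 1 well above the other two. The lowest denervated sample was 0.57 above normal 1. Its averages were 7.96 ± 0.27 in denervated and 6.30 ± 0.76 in normal samples (SD, n = 3 each). They differed by 1.66 on the log2 scale (standard error 0.47), or 3.17-fold. In linear intensity the denervated samples were at 306, 242 and 211 and the normal samples at 141, 51 and 68.

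lncRNA6116 read 12.27, 12.24 and 12.18 in denervated 1, 2 and 3, and 11.37, 11.15 and 11.05 in normal 1, 2 and 3. It had the smallest difference of the 3 and the least spread, with the lowest denervated sample 0.81 above the highest normal sample. It averaged 12.23 ± 0.05 and 11.19 ± 0.16, denervated and normal (SD, n = 3 each). The log2 difference of 1.04 had a standard error of 0.10 and corresponds to 2.05-fold. In linear intensity the denervated samples were at 4939, 4821 and 4628 and the normal samples at 2639, 2267 and 2127.

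**Figure D1:**
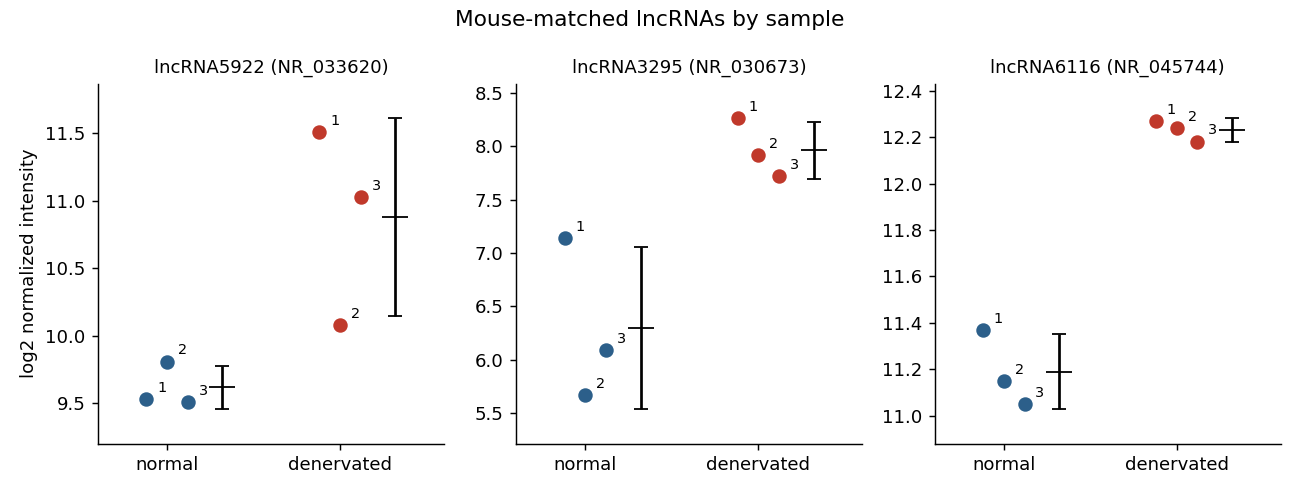
Log2 normalized intensity (vertical axis, a separate scale for each lncRNA) of lncRNA5922, lncRNA3295 and lncRNA6116 in 3 normal and 3 denervated hippocampi. Points are samples with their numbers and bars the mean ± SD, and the spread of lncRNA5922 is in the denervated group (SD 0.73 against 0.16), that of lncRNA3295 in the normal group (0.76 against 0.27), and lncRNA6116 has little in either (0.05 and 0.16).

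The standard errors allow no order of the 3 differences. The difference of lncRNA3295 minus that of lncRNA5922 was 0.40, and that of lncRNA6116 minus that of lncRNA5922 was -0.22, both smaller in size than the standard error of lncRNA5922 alone. Between lncRNA6116 and lncRNA3295 it was -0.62, where the standard error of lncRNA3295 alone was 0.47. Denervated 1 was the highest denervated sample for all 3, as it was for 26.7% of all lncRNA probes. In the normal group, normal 1 was the highest for lncRNA3295 and lncRNA6116, and normal 2 for lncRNA5922. A bulk sample does not show whether more cells held the RNA or each cell held more of it.

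Values relative to the group means, which do not depend on the difference between the groups, were also compared. The correlation of these deviations over the 6 samples was 0.85 between lncRNA3295 and lncRNA6116. It rested on normal 1, the highest normal sample for both, and was 0.12 without it. With all 6 samples it was 0.01 between lncRNA5922 and lncRNA3295 and 0.02 between lncRNA5922 and lncRNA6116. With the group difference left in, the values were 0.93, 0.72 and 0.81, in the same order, and these are raised by the choice of all 3 for the same direction. The points share arrays and scaling, and 6 samples are few for a correlation.

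A log2 difference above 1 was found in 8.06% of all lncRNA probes and in 7.84% of mouse matches. The groups separated upward without overlap in 3.37% of all lncRNA probes and in 2.89% of mouse matches. Both held for 1.25% of all lncRNA probes, 84 in number, and for 32 mouse matches (0.954%), lncRNA5922, lncRNA3295 and lncRNA6116 among them. Nothing is read from their own place there, as they were listed for it. In limma, 1.04% of lncRNA probes passed the thresholds of the methods upward (log2 difference above 1 with an unadjusted p under 0.05), and 0.0149% passed an adjusted p under 0.05. By size of difference alone, lncRNA3295 ranked 121 among the 3356 mouse matches, lncRNA5922 ranked 188 and lncRNA6116 ranked 258. By the gap between the lowest denervated and the highest normal sample, lncRNA6116 ranked 20 of the 226 lncRNAs with higher, non-overlapping values, lncRNA3295 ranked 24 and lncRNA5922 ranked 74. Both rankings use the values on which the 3 were listed, and nothing is read from them either.

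These shares changed with intensity, and the 3 probes lie in different parts of the range. Lower mean intensity than that of lncRNA3295 was found in 10.5% of lncRNA probes, against 51.9% for lncRNA5922 and 79.3% for lncRNA6116. When all lncRNA probes were divided by mean intensity into 4 classes of equal size, differences above 1 made up 26.2% of the dimmest class, which holds lncRNA3295. They made up 3.04% of the next, 1.79% of the class that holds lncRNA5922 and 1.19% of the brightest, which holds lncRNA6116. Brightness of different probes is not a measure of their transcripts' relative amounts.

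**Figure D2:**
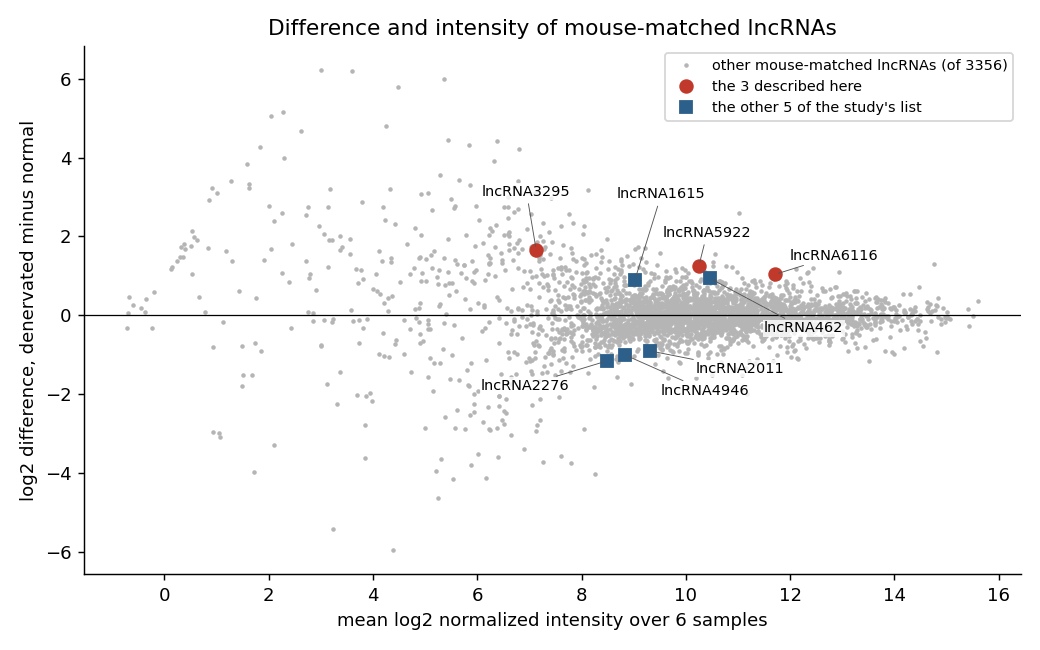
Log2 difference of denervated minus normal (vertical axis) against mean log2 normalized intensity over 6 samples (horizontal axis) for the 3356 mouse-matched lncRNAs. Red circles are lncRNA5922, lncRNA3295 and lncRNA6116, and blue squares are the other 5 mouse matches of the study's list. Differences fan out toward low intensity, where lncRNA3295 lies, and are narrow around lncRNA6116.

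The spread within groups also differed between the 3. The pooled SD of lncRNA6116 was 0.12, where the median of its intensity class was 0.43, and 1.79% of that class had a smaller one. For lncRNA3295 it was 0.57 against a median of 1.27, with 14.1% smaller. For lncRNA5922 it was 0.53 against 0.48, with 59.0% smaller, so of the 3 only this probe varied about as much as others of like intensity. A small SD within groups and the lack of overlap are linked, so the first 2 of these values carry the choice of the probes in part.

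Leaving out 1 sample at a time showed which samples carried each difference. That of lncRNA5922 fell to 0.94 without denervated 1 and rose to 1.66 without denervated 2. That of lncRNA3295 ranged from 1.35 without normal 2 to 2.08 without normal 1. That of lncRNA6116 ranged only from 0.97 without normal 3 to 1.13 without normal 1. Without both denervated 3 and normal 2, the samples that stood apart, the differences were 1.27 for lncRNA5922, 1.47 for lncRNA3295 and 1.04 for lncRNA6116. Since no values overlapped, leaving out a sample could not turn a direction.

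**Figure D3:**
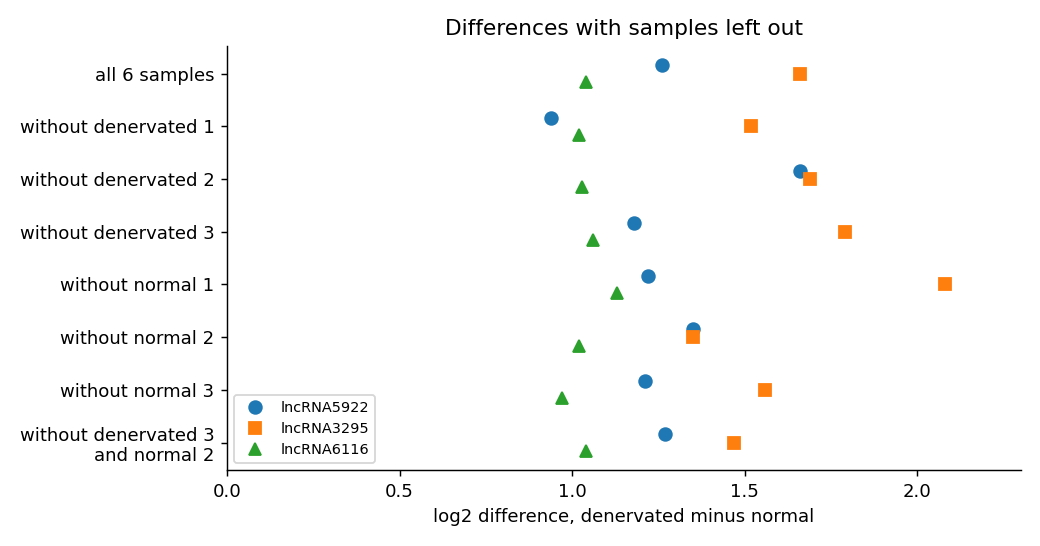
Log2 difference of denervated minus normal (horizontal axis) for lncRNA5922 (circles), lncRNA3295 (squares) and lncRNA6116 (triangles) with all samples and with the samples named on the vertical axis left out. lncRNA6116 stays between 0.97 and 1.13, lncRNA5922 moves between 0.94 and 1.66, and lncRNA3295 between 1.35 and 2.08.

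The array holds 3 probes matched to NR_033620, and only lncRNA5922 had been chosen for a difference. The other two, lncRNA3238 and lncRNA5687, are annotated on the plus strand of chromosome 15, from 39468322 to 39542210 and from 39461770 to 39746100, which lie 504.2 kb and 300.3 kb from lncRNA5922 and overlap each other. lncRNA3238 read 10.38, 9.99 and 10.90 in denervated 1, 2 and 3 and 10.62, 11.11 and 10.83 in normal 1, 2 and 3. The groups of lncRNA3238 overlapped, with a log2 difference of -0.43 and a standard error of 0.30. lncRNA5687 read 10.57, 10.39 and 10.97 in the denervated and 11.37, 10.76 and 10.69 in the normal samples. Its groups overlapped too, with a log2 difference of -0.30 and a standard error of 0.28. Neither passed the Benjamini-Hochberg adjustment in limma over all probes (adjusted p = 1.0 for both, unadjusted p = 0.261 for lncRNA3238 and 0.401 for lncRNA5687). So the higher reading at NR_033620 was found at the minus-strand position and was not detected at the plus-strand ones, in 3 samples a group. The difference between the probes was not tested, because lncRNA5922 was selected on these values.

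**Figure D4:**
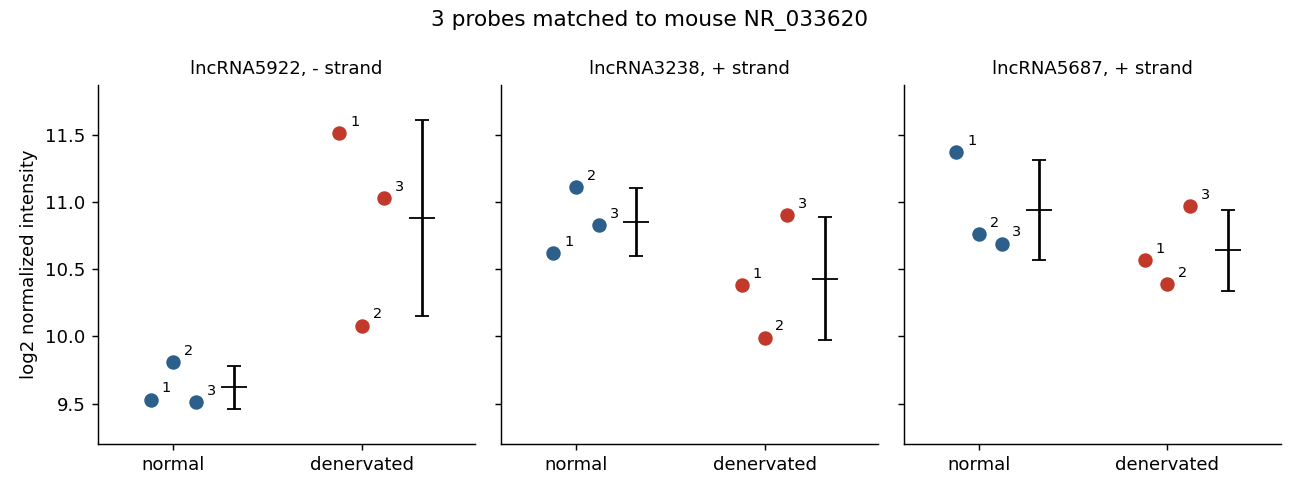
Log2 normalized intensity (vertical axis, 1 scale for all panels) of the 3 probes matched to mouse NR_033620 in 3 normal and 3 denervated hippocampi, with sample numbers and mean ± SD. lncRNA5922 on the minus strand differs by 1.26 between the group means with no overlap, and the groups overlap for lncRNA3238 and lncRNA5687 on the plus strand.

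Over the 6 samples the correlation of lncRNA5922 was -0.20 with lncRNA3238 and -0.28 with lncRNA5687. Both values include the group difference for which lncRNA5922 was chosen. Computed on deviations from the group means, the correlations were 0.60 with lncRNA3238 and 0.23 with lncRNA5687. Other accessions with several probes were compared over all intensities, although differences above 1 were most frequent among dim probes. Of 3125 mouse accessions, 156 had more than 1 probe, 68 of them with probes on both strands. The range of log2 differences between probes of 1 accession had a median of 0.54, and that of NR_033620, at 1.69, was the 23rd widest of the 156. The difference for which lncRNA5922 was chosen enters the 1.69, so nothing is read from this rank. In 30 of the 156 accessions at least 1 probe had a difference above 1, and in 2 of the 30 all probes had.

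Other probes near the 3 lncRNAs on the array were few. lncRNA4828, a match of NR_040646 on the same strand 44.1 kb from lncRNA5922, was the only one within 100 kb of any of them. It read 5.55, 8.46 and -0.50 in the denervated and -0.27, -0.41 and 5.97 in the normal samples. Both groups of lncRNA4828 held values at the bottom of the scale and they overlapped (log2 difference 2.74, standard error 3.38, limma adjusted p = 1.0). The closest annotated probe to lncRNA3295 was lncRNA3683, an Ensembl rat transcript 667.3 kb away, with a log2 difference of 0.37 and a standard error of 0.70. The closest to lncRNA6116 was lncRNA825, a match of NR_045299 at 564.1 kb, with -0.38 and 0.36. Neither passed in limma (adjusted p = 1.0 for both). RefSeq rat probes carry no position in the annotation and were not placed.

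The study's list holds 5 further mouse matches. lncRNA462 (NR_033745) and lncRNA1615 (NR_102387) were also higher after denervation without overlap, with log2 differences of 0.94 and 0.91. lncRNA462 averaged 10.93 ± 0.53 denervated and 9.99 ± 0.09 normal, and lncRNA1615 averaged 9.48 ± 0.52 and 8.57 ± 0.10 (SD, n = 3 each). Both thus lay just below lncRNA6116, whose difference was 1.04. As with lncRNA5922, their spread was larger in the denervated group. lncRNA2011 and lncRNA2276 were lower, with log2 differences of -0.90 and -1.15, and so was lncRNA4946, at 8.33 ± 0.22 against 9.33 ± 0.09. These directions also come from the choice of the list.

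The probes most like each lncRNA were sought by Pearson correlation over the 6 samples among the other 5962 lncRNA probes with no value under 5. For lncRNA5922 the closest was lncRNA5453, a match of NR_073190, with a correlation of 0.996. lncRNA5453 read 10.17, 9.76 and 10.10 in the denervated and 9.61, 9.69 and 9.60 in the normal samples, the same order of samples as lncRNA5922 at a smaller scale (log2 difference 0.38). The next were lncRNA1652, lncRNA3913, lncRNA4600 and lncRNA461, and the lowest correlation of the 5 was 0.952. Their log2 differences ran from 0.31 to 0.62, all below that of lncRNA5922. Correlations of deviations from the group means ran from 0.86 to 0.99 for these 5. These follow in large part from the search itself, which used the same 6 samples.

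For lncRNA3295 the closest was lncRNA1292, a match of NR_029838, with a correlation of 0.977. Its annotated position, on chromosome 3 from 13750975 to 13751071, is much shorter than that of lncRNA3295. The name lncRNA1292 follows the array identifier, and such identifiers also cover other noncoding RNAs such as microRNA precursors. lncRNA1292 ranged only from 10.12 to 10.44 over the 6 samples, with normal 2 the lowest, as for lncRNA3295. lncRNA2925, a RefSeq rat transcript, had a log2 difference of 1.73, close to the 1.66 of lncRNA3295. It read 8.72, 9.17 and 8.44 in the denervated samples and 8.20, 6.31 and 6.62 in the normal samples. In lncRNA2925, as in lncRNA3295, normal 1 was the nearest to the denervated samples and normal 2 was the lowest. lncRNA1050, lncRNA1999 and lncRNA389 completed the 5, with correlations of at least 0.965. Correlations of deviations ran from 0.88 to 0.99 over the 5 and come from the same search.

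For lncRNA6116 the closest was lncRNA1989, a match of NR_038041, with a correlation of 0.984. lncRNA1989 read 11.46, 11.57 and 11.44 after denervation and 10.89, 10.73 and 10.82 in the normal samples, and did not overlap between the groups. lncRNA2591, a match of NR_028107, had a log2 difference of 0.93, near that of lncRNA6116. lncRNA1205, lncRNA5239 and lncRNA1800 made up the rest, and all 5 kept the groups apart. Their correlations of deviations ran from -0.03 to 0.64, so that the likeness to lncRNA6116 was mainly that of the group difference, which had been the ground for listing it. Of the 5 probes found for lncRNA5922, lncRNA3295 and lncRNA6116, 4, 2 and 3 were mouse matches. The 6 samples are few for a search over 5962 probes. Correlations above 0.95 were found for 5, 5 and 4 probes, and correlations below -0.95 for 11, 5 and 5.

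**Figure D5:**
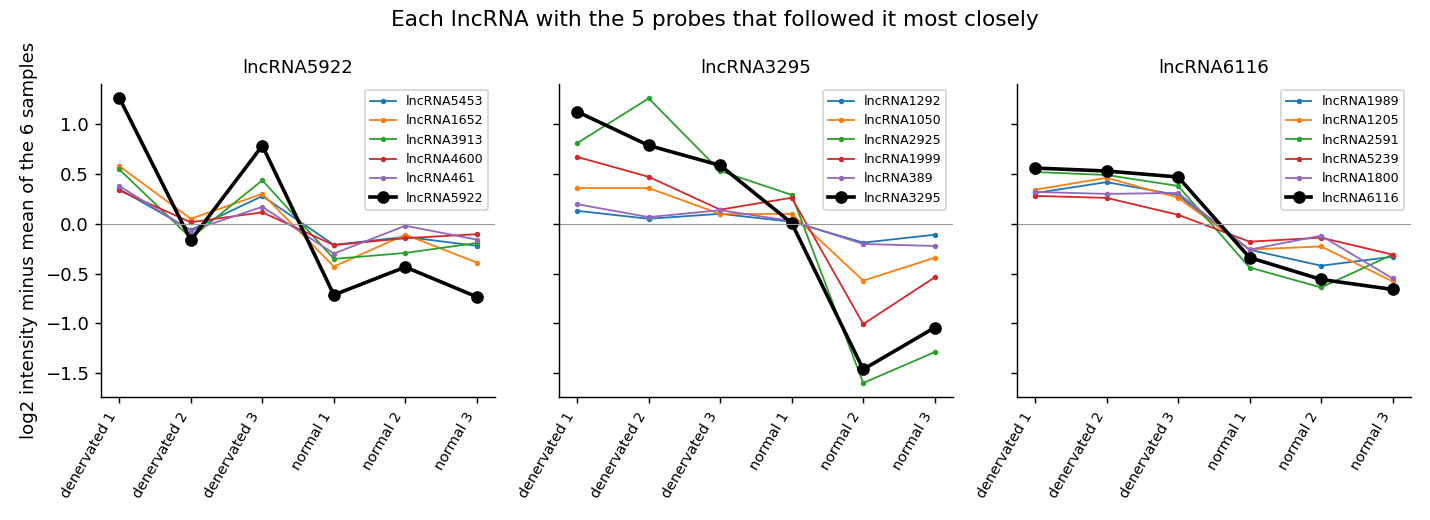
Log2 intensity minus the mean of the 6 samples (vertical axis) for lncRNA5922, lncRNA3295 and lncRNA6116 (black) and the 5 probes with the highest correlation to each (colours) in each sample (horizontal axis). Denervated 2 is the lowest denervated sample for lncRNA5922 and its 5 probes, and normal 1 the highest normal sample for lncRNA3295 and its 5.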

How the data were processed

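The authors hybridized hippocampal RNA of 3 denervated and 3 normal samples to 1-colour arrays, scanned with the GenePix 4000B. They applied 50% scaling, summarised repeated spots by their median and repeated arrays by their mean, and deposited the result as log2 normalized intensity. A background correction or a filter on dim probes is not stated. Values of 6716 probes were used as deposited, and a second deposited table differed from them by at most 5.0e-09. The deposited lists of changed lncRNAs hold the authors' ratios and p-values and were not used.

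Differences are means of log2 intensity, denervated minus normal, with a standard error from the SDs of both groups. Other probes were tested in limma 3.58.1 (R 4.3.3, functions lmFit and eBayes) with no block, the p-values were adjusted by Benjamini-Hochberg over the whole table, and the code was tested on simulated data. The rank product test of the methods was not run. p-values measure the spread between 3 arrays a group, which limits precision. Figures were drawn with matplotlib 3.10.9.

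The lncRNAs, lists and tests were chosen with earlier results of these data known. Named probes are the 3 lncRNAs, the other mouse matches of the study's list, the 5 probes most correlated with each, probes of the same accession or within 100 kb, and the marker RNAs. The closest probes to lncRNA3295 and lncRNA6116, which lie farther away, and the intensity classes were added after values were seen. RefSeq symbols come from the GRCr8 gene table, which named 388 of 1672 RefSeq rat probes and 0 of 1683 Ensembl probes. Alternatives were quantile normalization, array medians, values under 5 set to 5, the upper 50% of probes, an intensity trend and a Student t-test. The methods name that t-test in general and not for the arrays. Medians, linear means, the second table, the sample number as a block and leaving out samples were also used.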

Additional observations from a re-analysis of the deposited data

How the results depend on the processing

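The log2 differences of lncRNA5922, lncRNA3295 and lncRNA6116 moved by less than 1 SD within groups under all 42 alternatives run for them, and none turned its direction. Most of these outcomes were fixed in advance. With 3 samples a group, omitting 1 cannot move a difference by 1 SD, and values without overlap cannot turn. The second table, the sample block and the floor of 5 could not change these 3 differences. Outside the omission of single samples they were at least 1.24, 1.47 and 1.02. Among all lncRNA probes, limma put 70 higher and 20 lower at the thresholds of the methods. Restriction to the upper 50% of probes gave 26 and 8, a Student t-test gave 37 and 9, and quantile normalization gave 70 and 34. When 1 sample was left out, the higher count ranged from 39 (denervated 1 omitted) to 245 (normal 2 omitted) and was 133 with denervated 3 omitted. The lower count ranged from 6 (normal 3 omitted) to 90 (denervated 2 omitted), and was 79 and 73 with denervated 3 or normal 2 omitted. One probe, lncRNA3055 (named after its values were seen), passed the adjusted p, a count of 1, with 132 at an unadjusted p under 0.05. That count was 0 under quantile normalization, a floor of 5, the upper 50%, the intensity trend and the t-test, where unadjusted counts in that order were 144, 143, 78, 143 and 162. With single samples omitted it ranged from 0 to 9 (denervated 3 omitted). The 226 higher lncRNAs without overlap became 122 among the upper 50% and 348 to 1006 with a sample omitted, where fewer samples overlap less. The upper 50% holds fewer probes, and the cause of the other changes was not tested.

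The correlations of log2 values of lncRNA5922 with lncRNA5453, lncRNA3295 with lncRNA1292 and lncRNA6116 with lncRNA1989 were 0.996, 0.977 and 0.984. They ran from 0.995 to 1.000, from 0.960 to 0.993 and from 0.981 to 0.992 without 1 sample, and quantile normalization took that of lncRNA3295 from 0.977 to 0.934. Computed on deviations from the group means instead, they were 0.986, 0.941 and 0.498. Without 1 sample the correlation of deviations ran from -0.34 to 0.24 between lncRNA5922 and lncRNA3295, from -0.23 to 0.27 between lncRNA5922 and lncRNA6116 and from 0.12 (normal 1 omitted) to 0.99 between lncRNA3295 and lncRNA6116. Omitting samples from correlations was added after seeing the data.

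Whether equal sample numbers mark a pair is not stated. Deviations of samples of equal number correlated at -0.05, -0.52 and -0.35, and 0 of 6 samples correlated best with their own number. With the number as a block, the 3 differences stayed at 1.26, 1.66 and 1.04 by construction, and 51 lncRNAs were higher, 11 lower and 0 past the adjusted p, with 62 at an unadjusted p under 0.05. Signal over background could not be assessed.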
